A study of Rattus norvegicus with 12 samples.

Results

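The comparison described here set the pyramidal neurons of hippocampal field CA1 against those of field CA3 in the rat, from 3 arrays labelled CA1 and 3 labelled CA3, which make up 6 of the 12 arrays in the series. A further array, labelled as the third replicate of the cerebellar granule (CbG) cell layer, was examined beside them because it carried CA3 markers, which brings the arrays described to 7. The 6 arrays were chosen by their labels, and the added array by its measured marker signals. All differences below are CA1 minus CA3 on the log2 scale, so that a positive value is a higher signal in CA1, and ± gives the standard error of the fit.

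The study asked which transcripts distinguish neurons that are sensitive to oxidative stress, among them those of CA1, from more resistant ones, among them those of CA3, under basal conditions. Neurons of the CA1 and CA3 pyramidal layers, of the CbG layer and of the deep layers of frontal cortex (CTX) were collected by laser capture microdissection, in which a laser lifts stained cells out of a frozen section. All groups came from Fisher 344/BN F1 rats, a hybrid of a pair of strains, aged 6 months that had received no treatment, and no group carries an engineered allele or a drug, so that the labels of CA1 and CA3 differ by region only. The labels call the arrays of a region biological replicates 1 to 3, and a shared number was read as a shared rat, which the paired tests of the methods imply but no label states. RNA was amplified in 2 cycles, labelled and hybridized to the Affymetrix RAE230A array, on which a probe set is a group of short probes for 1 transcript. A captured layer also holds processes of other cells, and in such bulk samples fewer cells of a type and less RNA per cell cannot be told apart.

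CA3 pyramidal neurons receive the mossy fibres of the dentate gyrus and contact each other through recurrent collaterals, and their Schaffer collaterals carry the signal on to CA1 pyramidal neurons. CA1 neurons are the main output of the hippocampus proper and are known for their early loss after ischemia and other insults. The pyramidal neurons of both fields are glutamatergic and are told apart by a set of regional genes, of which Wfs1 and Mpped1 mark CA1 and Grik4 and Pcp4 were taken here as marks of CA3.

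The deposited values are signals of the MAS5 algorithm on a linear scale. The median signal was 158.2, 161.3 and 147.7 in the CA1 arrays and 156.9, 145.5 and 158.5 in those labelled CA3, and it was 161.8 in the array labelled CbG replicate 3. For beta-actin the 3' probe set was set over the 5' one, as a log2 ratio that rises as RNA is shortened. It gave 4.76, 5.35 and 4.62 in CA1, against 4.01 and 4.45 in CA3 replicates 1 and 2. All CA1 arrays were thus above these CA3 arrays by this measure. The array labelled CA3 replicate 3 had 3.85, and that labelled CbG replicate 3 had 4.66, above CA1 replicate 3. The same ratio for GAPDH overlapped, at 1.55, 2.21 and 1.74 in CA1 and 1.31 and 2.08 in CA3. The part of this difference in the results below was not tested.

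Of the 7 arrays, 2 went against their labels. The array labelled CA3 replicate 3 had a mean correlation over probe sets of 0.858 with CA3 replicates 1 and 2 and of 0.921 with CbG replicates 1 and 2, and the array closest to it was CbG replicate 1 (0.932). Summed over 8 marker genes of cerebellar granule neurons, its signal was 36080.9, against 2220.4 and 2234.2 in CA3 replicates 1 and 2 and 31516.2 and 37793.8 in CbG replicates 1 and 2. The array labelled CbG replicate 3 was the reverse, with mean correlations of 0.928 with CA3 replicates 1 and 2 and 0.851 with CbG replicates 1 and 2, and a granule marker sum of 2377.8. These correlations are across probe sets of 1 array and are descriptions. The comparison was therefore fitted as labelled (12 arrays in the fit), without both doubtful arrays (10 arrays) and with the labels of these arrays exchanged (12 arrays). The main counts are given for all 3, and the fit over 10 arrays, which compares 3 CA1 arrays with CA3 replicates 1 and 2, is the one quoted where no other is named.

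Among the 4 markers that define the comparison, Wfs1, which encodes a membrane protein of the endoplasmic reticulum, had signals of 15688.4, 20537.9 and 17373.0 in CA1, against 1044.7 and 481.4 in CA3 replicates 1 and 2. Mpped1, a gene for a metallophosphoesterase domain protein, had 8242.8, 10027.9 and 9240.5 in CA1, against 609.6 and 181.6 in CA3. Both were thus far higher in every CA1 array than in either CA3 array. Grik4, a kainate receptor subunit, had 42.0, 45.3 and 16.5 in CA1, against 679.9 and 969.0 in CA3, and Pcp4, a small calmodulin-binding protein, had 183.4, 60.0 and 39.9 in CA1, against 5599.0 and 5856.3 in CA3. The array labelled CA3 replicate 3 had neither set, with 290.0 for Wfs1, 189.5 for Mpped1, 68.0 for Grik4 and 242.1 for Pcp4. It also differed from CbG replicates 1 and 2, where Pcp4 was at 4748.5 and 16935.4, and where the calcium-binding proteins Calb1 (72.0 in this array, against 4181.2 and 12798.2) and Pvalb (5.3, against 883.6 and 2046.8) were far higher.

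The array labelled CbG replicate 3 had the CA3 markers near the level of the CA3 arrays, with 621.0 for Grik4, against 70.0 and 135.6 in CbG replicates 1 and 2, and 7586.0 for Pcp4, which does not set it apart from those CbG arrays. Its CA1 markers lay between both fields, with 3769.0 for Wfs1 and 2874.0 for Mpped1. Summed over 8 CA1 marker genes, the signal was 39101.7, 45355.4 and 40943.5 in CA1, against 3657.7 and 2003.7 in CA3 replicates 1 and 2. It was 10214.7 in the array labelled CbG replicate 3, and 728.3 in that labelled CA3 replicate 3. In the array labelled CbG replicate 3, 6 of the 7 tested CA1 markers were above both CA3 arrays and 7 of 7 were below all CA1 arrays. On the linear signal scale they lay at a median of 16.6% of the way from the CA3 to the CA1 mean (range -10.0 to 28.2%). The log2 scale, used for the differences, places a signal between the means further towards CA1 for such genes. Exchanging the labels therefore brings into the CA3 group an array with more CA1 marker signal than the other CA3 arrays, and how it came to hold it was not tested.

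**Figure D1:**
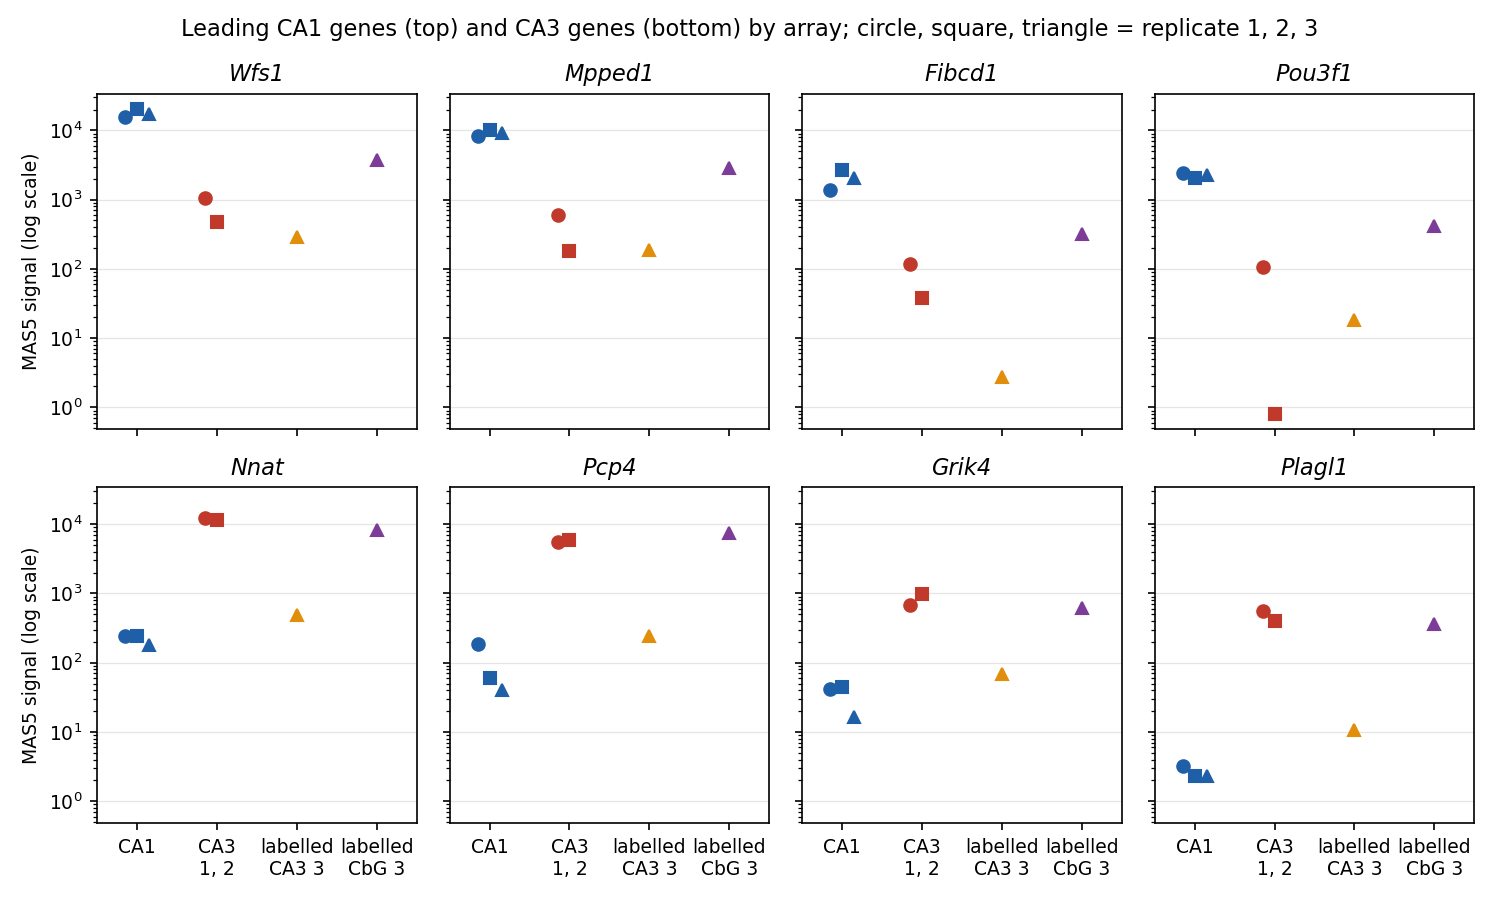
MAS5 signal (log scale) of 4 genes higher in CA1 (top row) and 4 lower in CA1 (bottom row), with 1 point per array for the 3 CA1 arrays, CA3 replicates 1 and 2, and the 2 doubtful arrays by their labels. The array labelled CA3 replicate 3 is low for all 8 genes, while that labelled CbG replicate 3 is at the CA3 level for the bottom row and between the fields for the top row, as for Wfs1 (3769.0).

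Over the 8302 probe sets tested, which stand for 6262 genes with a single symbol, many more differences passed in the arrangements that do not take the array labelled CA3 replicate 3 as CA3. A probe set was called at a limma adjusted p (Benjamini-Hochberg) under 0.05 and at least a 1.5-fold difference. Without the doubtful arrays 415 probe sets were higher and 391 lower in CA1, or 9.71% of those tested (5.0% higher and 4.71% lower), for 319 and 303 genes. Of these, 76 and 78 differed at least 4-fold, and the median standard error over all probe sets was 0.25. As labelled 59 were higher and 56 lower (1.39% in all, 0.711% higher and 0.675% lower). With the labels exchanged 608 were higher and 513 lower (13.5% in all, 7.32% higher and 6.18% lower). All 59 and 56 calls made as labelled were made in the same direction in both other arrangements. Of the calls over 10 arrays, 391 of the 415 and 355 of the 391 were also made with the labels exchanged, which are 64.3% and 69.2% of the calls of that arrangement, and 0 were made in opposite directions.

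The count over 10 arrays rests on few arrays. Without CA3 replicate 2 it was 115 higher and 113 lower, and without CA3 replicate 1 it was 264 and 197. Leaving out CA1 replicate 1 gave 211 and 243, CA1 replicate 2 gave 195 and 164, and CA1 replicate 3 gave 301 and 310. As labelled, leaving out any single CA1 array gave 0 and 0 in limma (315 to 357 higher and 311 to 390 lower at an unadjusted p under 0.05), leaving out CA3 replicate 1 or 2 gave 4 and 3, and leaving out the array labelled CA3 replicate 3 gave 106 and 103. Leaving out all arrays of rat 1 or of rat 2 also gave 0 and 0 as labelled, and leaving out rat 3, to which both doubtful arrays belong, gave 301 and 310. With the labels exchanged, leaving out CA1 replicate 1 gave 329 and 320, CA1 replicate 2 gave 393 and 284, CA3 replicate 2 gave 377 and 271, and rat 1 gave 208 and 192. Without the rat as a block the count as labelled was 102 higher and 110 lower.

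The filter on low signals also set the counts. It kept probe sets above the median of an array in at least 3 of the 7 arrays, and with all 15866 probe sets in the fit the calls over 10 arrays were 23 higher and 20 lower, so that 76 of 87 named calls ended. As labelled they were then 2 and 2, and with the labels exchanged 234 and 230. Why the counts fell was not tested.

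**Figure D2:**
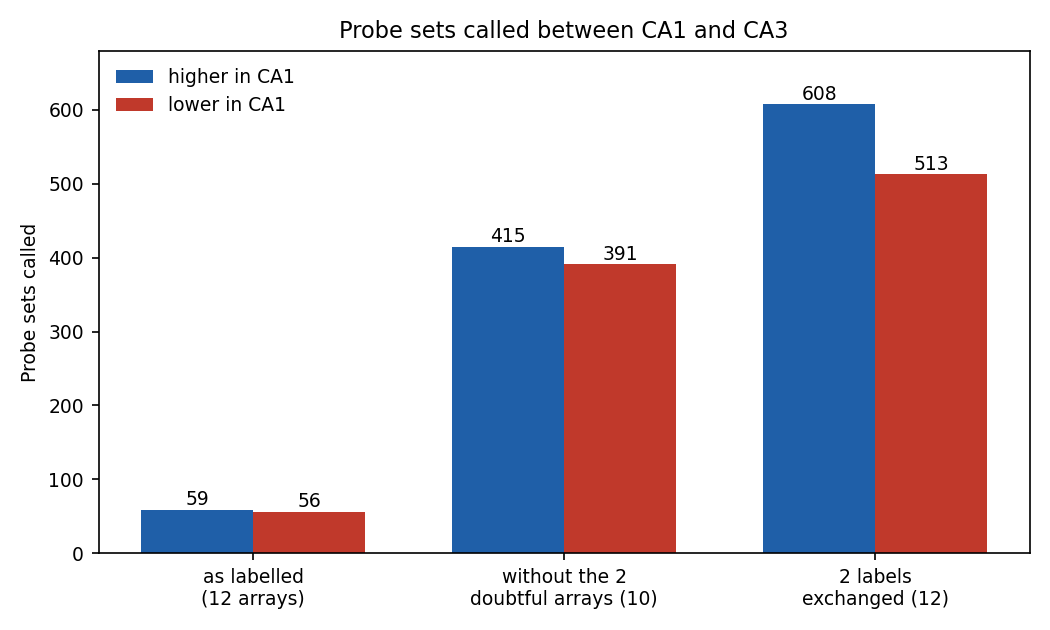
Number of probe sets called higher (blue) and lower (red) in CA1 than in CA3 under the 3 arrangements of the arrays, out of 8302 tested. The counts are 59 and 56 as labelled, 415 and 391 without the doubtful arrays and 608 and 513 with their labels exchanged.

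The position of the doubtful arrays was also read over all calls of the fit over 10 arrays. They took no part in that fit, but the filter on low signals used them, and 11 of the 415 probe sets higher and 96 of the 391 lower in CA1 passed it only through a doubtful array. The array labelled CbG replicate 3 was nearer to the CA3 than to the CA1 mean for 359 of the 415 probe sets higher in CA1 (86.5%) and for 350 of the 391 lower ones (89.5%). For the array labelled CA3 replicate 3 these were 219 (52.8%) and 179 (45.8%), so that it lay on the CA1 side about as often as on the CA3 side. Over the 404 higher and 295 lower probe sets that passed without the help of these arrays, a check added after seeing the data, the array labelled CbG replicate 3 was nearer to CA3 for 87.6% and 88.1%, and that labelled CA3 replicate 3 for 54.2% and 43.7%.

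The 14 largest differences among genes higher in CA1 ran from 3.80 to 7.91. These genes passed without the doubtful arrays and with the labels exchanged and did not overlap between the 3 CA1 arrays and CA3 replicates 1 and 2, which held for 45.2% of all probe sets tested. Pou3f1, a POU domain transcription factor, led with signals of 2464.5, 2058.4 and 2254.4 in CA1, against 106.9 and 0.8 in CA3 (7.91 ± 1.51, limma adjusted p = 0.00953). The size of that difference comes from the single value of 0.8, and with signals under 50 set to 50 it was 4.93. Adgrl2, which encodes latrophilin-2, an adhesion receptor of the postsynaptic membrane, had 2544.6, 1098.3 and 1658.4 in CA1, against 86.7 and 8.2 in CA3 (5.87 ± 0.64, adjusted p = 0.000594). Dpysl5, of the collapsin response mediator family that acts in neurite growth, had 438.3, 593.6 and 585.1 in CA1, against 17.5 and 6.4 in CA3 (5.60 ± 0.37, adjusted p = 4.65e-05).

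Cadps2, a priming factor for dense-core vesicles, had 3124.0, 2684.0 and 2939.8 in CA1, against 218.3 and 39.3 in CA3 (4.96 ± 0.54, limma adjusted p = 0.000594). In the array labelled CA3 replicate 3 its signal was 9763.8, above every CA1 array, and as labelled its difference was 2.71 (adjusted p = 0.625). The differences of Wfs1 (4.57 ± 0.29, adjusted p = 4.65e-05) and Mpped1 (4.72 ± 0.49, adjusted p = 0.000467) were nearly as large, at signals of 8242.8 or more in every CA1 array. A further probe set of Wfs1 gave 3.13.

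The other 8 of these 14 genes belong to several classes. Fibcd1, a membrane receptor for acetylated molecules, had 1397.3, 2707.1 and 2038.5 in CA1, against 115.7 and 37.7 in CA3 (4.59). Bhlhe41, a basic helix-loop-helix repressor of the circadian system, had 4771.8, 3782.3 and 4806.0 in CA1, against 567.5 and 53.7 in CA3 (4.58), and Htr5b, a serotonin receptor, had 1897.7, 2462.4 and 1803.2 in CA1, against 127.6 and 48.7 in CA3 (4.45). In each of these 3 genes the lowest CA1 value was more than 5 times the highest CA3 value. Pex5l, an auxiliary subunit of HCN channels, differed by 3.95 ± 0.50 and Smad3, which carries transforming growth factor signals to the nucleus, by 4.32 ± 0.55. Inhbb, a subunit of activins and inhibin B and thus a ligand of that same family, differed by 3.80 ± 0.98. Genes of the extracellular matrix were Dcn, the proteoglycan decorin (4.68 ± 0.85), and Fbn1, the microfibril protein fibrillin-1 (4.25 ± 0.88).

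In 10 of these 14 genes the mean CA3 signal was under 100, below the median of every array. Smad3, Dcn, Fbn1 and Inhbb were below the array median in CA3 replicates 1 and 2 and in both doubtful arrays. They thus passed the filter on low signals only through CA1, the field in which they are high. Outside CA1, Pou3f1, Fibcd1, Htr5b and Pex5l were above the median only in the array labelled CbG replicate 3. Adgrl2 and Dpysl5 were so only in that labelled CA3 replicate 3. As 3 arrays are needed, none of these genes could pass without CA1, and their adjusted p is no independent support. Egr2, Adcyap1 and Cacng3, described later, passed only through CA1, and Vip, Adcy8 and Cbln1 could not pass without it. With signals under 50 set to 50, all 14 kept an adjusted p under 0.05 in limma, with differences of 2.51 to 4.93. The calls of 8 of the 14 held in all 8 leave-outs, in which each of the 5 arrays and each of the 3 rats was left out in turn. Without CA1 replicate 3 only the cortical array of rat 3 remains, and the block fits it exactly. Leaving out rat 3 therefore gave the same calls (301 higher and 310 lower), and these leave-outs are a single check counted again. Those of Dcn, Fibcd1, Htr5b, Fbn1 and Inhbb ended without CA3 replicate 2, and those of Pou3f1, Dcn, Fbn1 and Inhbb without CA1 replicate 2. The calls of Fbn1 and Inhbb also ended without CA1 replicate 3, and that of Inhbb without CA1 replicate 1. In the array labelled CbG replicate 3 all 14 lay between the CA1 and the CA3 arrays. On the linear signal scale they were 4.44 to 43.4% of the way from the CA3 to the CA1 mean, and further towards CA1 on the log2 scale.

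The 14 largest differences among genes lower in CA1 ran from -7.58 to -4.45. Nnat, an imprinted gene for a small membrane protein of neurons, had signals of 241.1, 243.6 and 177.6 in CA1, against 12136.3 and 11693.1 in CA3 replicates 1 and 2 (-5.72 ± 0.31, limma adjusted p = 3.28e-05). The array labelled CbG replicate 3 had 8219.9 and that labelled CA3 replicate 3 had 490.9. Nnat thus gave the highest signals of the 14 in CA3, and the smallest adjusted p of all probe sets tested over 10 arrays. Pcp4 fell by 6.02 (± 0.61, adjusted p = 0.000467) and Grik4 by 4.54 (± 0.37, adjusted p = 0.000142).

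Plagl1, an imprinted zinc finger transcription factor, had 3.2, 2.3 and 2.3 in CA1, against 551.8 and 407.1 in CA3 (-7.58 ± 0.75, limma adjusted p = 0.000386). Grp, the gene for gastrin-releasing peptide, had 3.3, 8.5 and 5.6 in CA1, against 527.5 and 384.2 in CA3 (-6.50 ± 0.42, adjusted p = 4.65e-05). Both were near the bottom of the signal range in CA1, and with signals under 50 set to 50 they differed by -3.27 and -3.28. Medag, known from the differentiation of fat cells, had 40.9, 35.2 and 3.8 in CA1, against 1371.3 and 1392.0 in CA3 (-5.79 ± 0.63), and Prss23, a serine protease, had 206.0, 140.3 and 84.9 in CA1, against 3317.9 and 4114.5 in CA3 (-4.63 ± 0.42).

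Il16, whose product gives rise to a cytokine and to a neuronal scaffold protein, had 72.0, 49.7 and 33.2 in CA1, against 1764.3 and 2091.0 in CA3 (-4.85 ± 0.35, limma adjusted p = 6.51e-05). The array labelled CA3 replicate 3 had 8747.3, so that Il16 was lower in CA1 under all 3 arrangements. Enzymes among the 14 were Cyp27a1, a sterol hydroxylase of bile acid synthesis (-4.50 ± 0.51), Dera, which splits deoxyribose phosphate (-4.87 ± 0.62), and B3gat2, a glucuronyltransferase of glycan synthesis (-4.52 ± 0.56). Loxl1, a lysyl oxidase that crosslinks matrix proteins, differed by -4.45 ± 1.03. The remaining 2 were Patj, a scaffold of cell polarity (-4.75 ± 0.69), and Spc25, a kinetochore protein (-4.46 ± 0.57).

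The mean CA1 signal was under 100 in 12 of these 14 genes. Of the 14, 11 passed the filter on low signals only because a doubtful array was above its median, against 0 of the 14 genes higher in CA1. That 0 is largely set by the filter, which the 3 CA1 arrays can pass alone and CA3 replicates 1 and 2 cannot. The dependence on a doubtful array holds for Grik4, Plagl1, Grp and Il16 but not for Nnat, Pcp4 and Prss23. Car10, Bdnf, Ntf3, Kcnd3, Spock1 and Tpm4, described later, passed in the same way. The array labelled CbG replicate 3 lay between the CA1 and the CA3 arrays for 9 of the 14. Over all 14 it was -65.8 to 59.3% of the way from the CA3 to the CA1 mean on the linear signal scale. With signals under 50 set to 50, all 14 kept an adjusted p under 0.05 in limma, with differences of -5.96 to -2.72. The calls of 13 of the 14 held in all 8 leave-outs. That of Loxl1 ended without CA1 replicate 1 or 2 and without CA3 replicate 1 or 2. As labelled, 3 of the 14 genes higher and 3 of the 14 lower in CA1 were called.

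**Figure D3:**
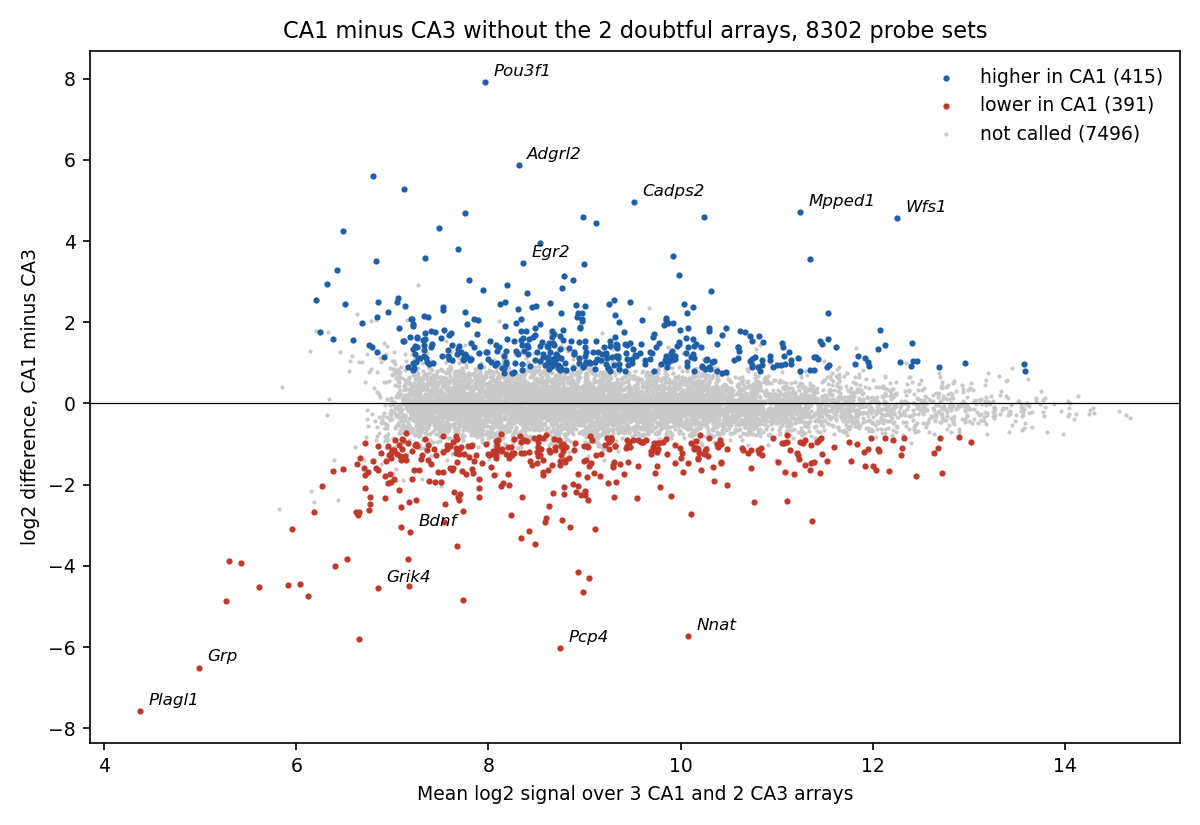
The log2 difference (CA1 minus CA3) of 8302 probe sets without the doubtful arrays, against the mean log2 signal over 3 CA1 and 2 CA3 arrays, with 415 called probe sets higher in CA1 in blue and 391 lower ones in red. Wfs1 and Mpped1 (4.57 and 4.72) differ at high signals, while Plagl1 and Grp (-7.58 and -6.50) differ at the lowest.

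The calls made as labelled were called under every arrangement. The 4 largest higher in CA1 were Wfs1 (5.06, limma adjusted p = 0.0403), Smad3 (4.18, adjusted p = 0.0164), Pex5l (3.82, adjusted p = 0.0335) and Egr2 (3.55, adjusted p = 0.0109). Egr2, an immediate early transcription factor, had 1413.1, 929.6 and 307.7 in CA1, against 97.5, 98.4 and 25.0 in the arrays labelled CA3 and 37.0 in that labelled CbG replicate 3. It varied over 4-fold among the CA1 arrays and was still above every other array named here. Those other signals were all below the median of their array, so that Egr2 passed the filter on low signals only through CA1. It thus had to be higher in CA1 to be tested.

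The 4 largest lower in CA1 as labelled were Il16 (-6.04, limma adjusted p = 0.0198), Dera (-4.73, adjusted p = 0.0403), Car10 (-4.50, adjusted p = 0.0403) and B3gat2 (-4.14, adjusted p = 0.0333). Car10, a secreted protein related to the carbonic anhydrases that binds neurexins, had 47.5, 43.5 and 65.9 in CA1, against 575.8, 772.7 and 3417.6 in the arrays labelled CA3. Its CA3 values were thus at least 8 times its CA1 values in all 3 arrays with that label.

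RefSeq promoters, taken as the 250 bases before the first listed start of a gene on the GRCr8 assembly, were matched by symbol for 5307 of the genes tested, among them 261 higher and 248 lower in CA1. The 6 promoters printed were chosen because the results turn on their genes, 3 higher (Wfs1, Bhlhe41 and Egr2) and 3 lower in CA1 (Pcp4, Plagl1 and Grp), each 5′ to 3′ on the strand of its gene. Capitals mark matches, on either strand, to the octamer ATGCAAAT bound by POU factors, the E-box CACGTG bound by helix-loop-helix proteins, or TATAAA, and none of the other motifs searched (EGR GCGTGGGCG, AP1 TGANTCA and CRE TGACGTCA) occurs in these 6.
Wfs1, GRCr8 chr14:78034955-78035204, plus strand: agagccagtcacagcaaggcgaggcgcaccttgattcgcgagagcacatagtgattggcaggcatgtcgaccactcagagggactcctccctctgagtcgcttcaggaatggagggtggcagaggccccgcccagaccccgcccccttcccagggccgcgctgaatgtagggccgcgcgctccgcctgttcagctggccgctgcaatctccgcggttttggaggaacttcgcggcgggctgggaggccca
Bhlhe41, GRCr8 chr4:180569356-180569605, minus strand: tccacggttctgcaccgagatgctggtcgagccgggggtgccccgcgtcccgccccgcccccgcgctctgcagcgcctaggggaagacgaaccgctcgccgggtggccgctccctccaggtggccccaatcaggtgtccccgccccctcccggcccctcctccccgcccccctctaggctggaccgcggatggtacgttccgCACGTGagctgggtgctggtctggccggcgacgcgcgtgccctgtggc
Egr2, GRCr8 chr20:21054442-21054691, minus strand: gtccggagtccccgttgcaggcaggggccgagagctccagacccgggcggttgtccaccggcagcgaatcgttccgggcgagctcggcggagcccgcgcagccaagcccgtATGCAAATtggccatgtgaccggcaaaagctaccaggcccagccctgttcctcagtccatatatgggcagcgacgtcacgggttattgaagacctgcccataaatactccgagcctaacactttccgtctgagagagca
Pcp4, GRCr8 chr11:49269936-49270185, plus strand: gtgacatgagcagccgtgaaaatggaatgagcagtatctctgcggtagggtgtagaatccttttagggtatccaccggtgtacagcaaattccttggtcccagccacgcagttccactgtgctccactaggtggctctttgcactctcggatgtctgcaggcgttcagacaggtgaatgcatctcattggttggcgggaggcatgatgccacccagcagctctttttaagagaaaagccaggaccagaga
Plagl1, GRCr8 chr1:9297214-9297463, plus strand: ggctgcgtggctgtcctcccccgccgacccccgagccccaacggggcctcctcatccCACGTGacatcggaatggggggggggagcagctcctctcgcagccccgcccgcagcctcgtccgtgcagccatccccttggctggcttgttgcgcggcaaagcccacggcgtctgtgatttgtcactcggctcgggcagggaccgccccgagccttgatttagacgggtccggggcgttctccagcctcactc
Grp, GRCr8 chr18:61658405-61658654, plus strand: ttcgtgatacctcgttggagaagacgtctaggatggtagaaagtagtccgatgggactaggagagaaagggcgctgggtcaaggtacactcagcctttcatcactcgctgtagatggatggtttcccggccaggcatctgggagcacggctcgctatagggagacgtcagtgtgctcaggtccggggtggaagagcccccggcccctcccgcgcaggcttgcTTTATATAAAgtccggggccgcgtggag

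The windows of Wfs1 and Pcp4 held none of the 6 motifs. That of Bhlhe41 held the E-box 48 bases before the start, that of Egr2 the octamer 139 bases before it, and that of Plagl1 the E-box 193 bases before it. In the window of Grp overlapping matches to TATAAA on both strands began 28 and 24 bases before the start. The octamer was present in 8 of 261 promoters of genes higher in CA1 (3.07%), in 4 of 248 of genes lower in CA1 (1.61%) and in 56 of all 5307 genes tested (1.06%). The E-box was present in 7.28%, 9.27% and 8.76% of the same sets, and TATAAA in 8.81%, 6.85% and 5.77%. The median GC content was 63.2% for genes higher and 62.0% for genes lower in CA1, against 61.2% for all genes tested. A match is a description of these letters and shows no bound site.

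Marker lists of cell types showed what else the captured layers held. Of 7 CA1 markers tested of 10 listed, 7 were higher in CA1 and 0 lower (median 4.57), and of 4 CA3 markers tested of 11 listed, 0 were higher and 3 lower (median -5.28). The other CA1 markers called were Gpr161 (3.56), Ccn3 (2.06) and Man1a1 (1.46), and the CA3 marker not called was Bok, with -0.29. Over all 8302 probe sets the median was -0.03, with 5.0% called higher and 4.71% lower, and the members of these lists are listed for their known region, so that their direction describes the labels and is no finding. A member that passed the filter on low signals only through the field in which it is high had to differ.

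CA2 markers were measured to see whether either capture reached the narrow field between CA1 and CA3. Of 6 tested of 9 listed, 2 were lower in CA1 and 0 higher (median -0.32, but 1.20 as labelled with 0 called), against 4.71% and 5.0% of all probe sets. These were Amigo2, an adhesion protein, with 334.2, 397.8 and 290.9 in CA1, against 1724.6 and 1509.6 in CA3 (-2.30 ± 0.25, limma adjusted p = 0.000594), and Ntf3, the gene for neurotrophin-3 (-2.29 ± 0.29, adjusted p = 0.00125). Rgs14, a defining CA2 gene, had 1285.8, 1539.3 and 1396.7 in CA1, against 1749.2 and 1745.8 in CA3, and its difference of -0.38 did not pass. Summed over 7 CA2 markers, the signal was 8344.3 to 8810.2 in CA1 and 10362.0 and 10981.8 in CA3.

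Myelin transcripts were lower in CA1. Of 6 oligodendrocyte markers tested of 12 listed, 3 were lower and 0 higher (median -0.88, with 6 of 6 below 0). Over all probe sets 4.71% were called lower, 5.0% higher, and 52.8% were below 0. Mbp, myelin basic protein, had 2950.9, 2126.0 and 2294.9 in CA1, against 6550.7 and 5695.8 in CA3 (-1.42 ± 0.31, limma adjusted p = 0.0164), and Cldn11, a claudin of the myelin sheath, and Mobp, a myelin protein, differed by -1.64 and -1.23. Summed over 10 such markers, the signal was 7106.0, 4591.0 and 5020.9 in CA1, against 13884.3 and 10391.3 in CA3, so that no CA1 array reached a CA3 array. Mog, a defining marker on the myelin surface, was at 144.6 or less in all 5 of these arrays. Of the 3 calls, each ended without CA1 replicate 2, without CA3 replicate 1 and without CA3 replicate 2, and the share of myelin RNA in the other differences was not tested.

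Markers of interneurons were higher in CA1 or did not pass. Of 9 tested of 13 listed, 2 were higher and 0 lower (median 0.82), against 5.0% and 4.71% of all probe sets. Vip, the gene for vasoactive intestinal peptide, had 1842.3, 976.5 and 1378.2 in CA1, against 125.1 and 112.8 in CA3 (3.43 ± 0.50, limma adjusted p = 0.00246). Cck, the gene for cholecystokinin, which pyramidal neurons also express, had 6460.1, 7038.5 and 8249.7 in CA1, against 2508.1 and 1603.3 in CA3 (1.81 ± 0.27, adjusted p = 0.00249). Gad1, which makes GABA and marks interneurons as a class, had 4536.5, 4980.4 and 4739.5 in CA1, against 2964.1 and 2562.7 in CA3, and its difference of 0.82 ± 0.28 did not pass (adjusted p = 0.0988). The summed signal of 10 interneuron markers was 16171.9, 15443.2 and 18072.1 in CA1, against 6848.6 and 7575.9 in CA3, without overlap. Cck alone gave 6460.1, 7038.5 and 8249.7 of the CA1 sums, so that the sum does not measure interneurons alone. Of the 9 tested, 7 were above 0 and 2 below, and at an unadjusted p under 0.05 in limma 4 were higher and 1 lower. The part of interneuron RNA in the differences of other genes was not tested.

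Few astrocyte, microglial and vascular markers passed, beside 5.0% called higher and 4.71% called lower over all probe sets. Of 8 astrocyte markers tested of 11 listed, 0 were called in limma (0 higher and 1 lower at an unadjusted p under 0.05, median -0.04), with sums of 18291.0, 13543.5 and 15162.1 in CA1 that overlapped the 18526.1 and 11314.0 of CA3. Of 3 microglial markers tested of 10 listed, 0 were called (median 0.01), and of 3 endothelial ones of 8 listed (median -0.85), 1 was lower, the transporter gene Slco1a4 (-1.29 ± 0.24, limma adjusted p = 0.00897), whose call ended without CA1 replicate 2 and without CA3 replicate 2. The endothelial sums did not overlap, at 959.7, 676.5 and 1144.3 in CA1, against 1422.7 and 1175.4 in CA3, and their part in other differences was not tested. Dentate granule cells left little signal, as 1 of 8 listed markers passed the filter and Prox1, the factor that defines these cells, stayed between 88.0 and 139.8 in the 5 arrays. Cerebellar granule markers summed to 1663.1 to 2157.4 in CA1 and 2220.4 and 2234.2 in CA3, and the 1 of 4 tested that was called was Cbln1, a synapse organizer, higher in CA1 (2.25 ± 0.31, adjusted p = 0.00196), while in the array labelled CA3 replicate 3 it reached 7231.9.

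**Figure D4:**
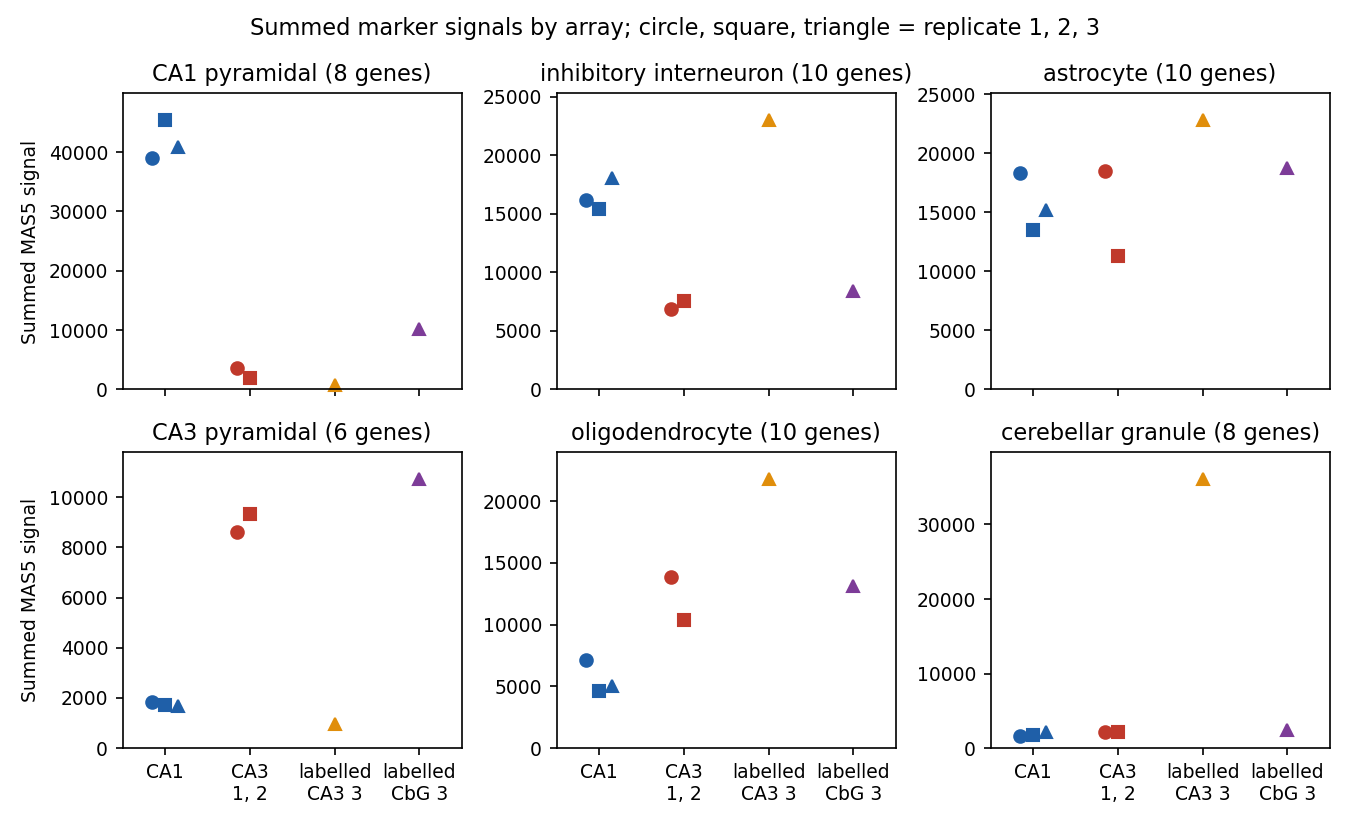
Summed MAS5 signal of 6 cell type marker lists in the 3 CA1 arrays, CA3 replicates 1 and 2, and the 2 doubtful arrays by their labels, 1 point per array on axes that start at 0. Oligodendrocyte sums are lower in CA1 (4591.0 to 7106.0) than in CA3 (10391.3 and 13884.3). Interneuron sums, of which Cck is a large part, are higher in CA1. Only the array labelled CA3 replicate 3 has a high cerebellar granule sum (36080.9).

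Synaptic vesicle and release proteins were the function list with the lowest median. Of 21 genes tested of 31 listed, 1 was higher and 7 were lower in CA1 (median -0.75, with 19 of 21 below 0, against 52.8% of all probe sets). Of all probe sets 5.0% were called higher and 4.71% lower. Stx1a, the gene for the SNARE protein syntaxin 1A, had 242.5, 236.6 and 229.5 in CA1, against 705.0 and 858.3 in CA3 (-1.75 ± 0.23, limma adjusted p = 0.00135). Syn2, of the synapsins that tether vesicles, had 1412.1, 1174.3 and 1746.2 in CA1, against 4135.9 and 4055.1 in CA3 (-1.69 ± 0.22, adjusted p = 0.00139), and Cplx2, the fusion clamp complexin 2, differed by -1.47 ± 0.26. These 3 genes were lower in every CA1 array than in both CA3 arrays.

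The further members lower in CA1 were Syn1 (-1.46), Vamp1 (-1.15), Cadps (-1.13) and Syp (-0.91), and the higher one was Cadps2 (4.96). Cadps and Cadps2 are paralogs that both prime dense-core vesicles, and they differed in opposite directions. Cadps had 3248.1, 3079.2 and 2981.1 in CA1, against 6305.2 and 7469.9 in CA3, where Cadps2 had 218.3 and 39.3. The vesicular glutamate transporter Slc17a7 did not pass (-0.79), with 2181.5, 1955.7 and 2294.0 in CA1, against 3329.7 and 3809.1 in CA3. As labelled, 0 were higher and 2 lower (median -0.44), and with the labels exchanged 1 was higher and 9 lower (median -0.61). The calls of Stx1a and Syn2 held in every leave-out and that of Cplx2 ended without CA3 replicate 1. Stx1a, Syn2, Cplx2, Cadps and Syp are also on lists that the study chose on these samples, so that their direction is not independent evidence. The same holds for Mbp, Ncald, Nefl, Cacna2d3, Fgf13, Fgfr2, Jun, Nr3c1, Rgs14, Sgk1 (listed as Sgk) and Usp1 in the other lists.

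Trophic factors and secreted peptides differed in both directions. Of 20 tested of 30 listed, 2 were higher and 6 lower in CA1 (median -0.26), against 5.0% and 4.71% of all probe sets. Bdnf, the gene for brain-derived neurotrophic factor, had 42.8, 73.0 and 72.1 in CA1, against 511.8 and 563.9 in CA3 (-3.16 ± 0.44, limma adjusted p = 0.00199), and Ntf3, its relative, had 103.9, 118.3 and 100.7 in CA1, against 381.9 and 786.0 in CA3. Both neurotrophins were thus lower in all CA1 arrays, while their receptors Ntrk2 and Ntrk3 differed by 0.44 and -0.21 and did not pass. Chgb, the dense-core granule protein chromogranin B, differed by -1.79 ± 0.28, and the other members lower in CA1 were the fibroblast growth factor receptor genes Fgfr1 (-1.12) and Fgfr2 (-0.84) and Fgf13 (-0.83), of the intracellular members of the growth factor family.

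Adcyap1, the gene for the peptide PACAP, had 615.4, 781.7 and 555.0 in CA1, against 74.4 and 108.0 in CA3 (2.92 ± 0.51, limma adjusted p = 0.006), and as labelled its difference was 3.49 (adjusted p = 0.0403). Adcyap1 was below the array median in all arrays labelled CA3 and in that labelled CbG replicate 3. It thus passed the filter on low signals only through CA1. The other higher member was Cck. The calls of Bdnf and Ntf3 held in every leave-out, while those of Adcyap1 and Chgb ended without CA3 replicate 2.

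Transcription factors had the highest median of the 21 function lists. Of 24 tested of 44 listed, 8 were higher and 1 lower in CA1 (median 0.53), against 5.0% and 4.71% of all probe sets. Beside Pou3f1, Bhlhe41 and Egr2 these were Fos (2.11), Junb (1.62), Nr4a1 (1.53), Mef2c (1.52) and Sox4 (1.21). Egr2, Fos, Junb and Nr4a1 are immediate early genes, which neurons switch on with activity. Fos had 1942.4, 2149.3 and 784.8 in CA1, against 673.9 and 304.9 in CA3 (limma adjusted p = 0.00197), and Egr1 had 5758.7, 5522.1 and 4493.4 in CA1, against 1877.3 and 2388.2 in CA3 but did not pass (1.36 ± 0.50, adjusted p = 0.119).

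Jun, whose product pairs with that of Fos, differed the other way, with 436.5, 347.0 and 392.3 in CA1, against 2237.9 and 1745.9 in CA3 (-2.32 ± 0.25, limma adjusted p = 0.000594). It was lower in CA1 as labelled too (-2.43, adjusted p = 0.0109), and the doubtful arrays had 2290.1 (labelled CA3) and 1602.0 (labelled CbG). A further probe set of Jun gave -1.91. Mef2c, a factor of activity-dependent synapse regulation, had 2792.7, 2886.7 and 2811.4 in CA1, against 1123.3 and 858.9 in CA3. As labelled, 3 members of this list were higher and 1 lower (median 1.32), and with the labels exchanged 9 and 1 (median 0.48).

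In the cyclic AMP and corticosteroid list, 5 of 23 genes tested of 31 listed were higher and 1 lower in CA1 (median 0.05). The shares over all probe sets were 5.0% and 4.71%. Adcy2, an adenylyl cyclase, had 2390.2, 2368.1 and 2698.0 in CA1, against 373.0 and 187.0 in CA3 (3.17 ± 0.32, limma adjusted p = 0.000386), and it was called as labelled as well (3.45, adjusted p = 0.0207). Adcy8, a calmodulin-stimulated cyclase, had 327.6, 253.9 and 237.9 in CA1, against 62.8 and 34.0 in CA3 (2.60 ± 0.24, adjusted p = 0.00029). Prkar2b, a regulatory subunit of protein kinase A, and Akap5, which anchors that kinase at the synapse, differed by 1.51 and 1.18. The genes of cyclic AMP formation and kinase anchoring that passed were thus all higher in CA1.

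Nr3c1, the glucocorticoid receptor, had 1344.3, 1184.5 and 1369.5 in CA1, against 470.1 and 446.6 in CA3 (1.40 ± 0.20, limma adjusted p = 0.00234), while Nr3c2, the mineralocorticoid receptor, differed by 0.06 and did not pass. Sgk1, a kinase gene that glucocorticoids induce, was the member lower in CA1, with 1351.6, 911.6 and 942.2 there, against 2183.7 and 2380.4 in CA3 (-1.13 ± 0.25, adjusted p = 0.0179). The receptor and this target thus differed in opposite directions. The calls of Adcy2 and Adcy8 held in every leave-out, that of Prkar2b ended without CA1 replicate 1 and without CA3 replicate 2, and that of Sgk1 without CA1 replicate 2 and without CA3 replicate 2.

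Calcium-binding and calcium-handling genes differed in both directions, with 3 higher and 4 lower in CA1 of 22 tested of 28 listed (median -0.27). Of all probe sets 5.0% were called higher and 4.71% lower. Calb1, the buffer calbindin, had 1102.9, 544.1 and 943.7 in CA1, against 297.2 and 90.4 in CA3 (2.22 ± 0.59, limma adjusted p = 0.0409). It was not called with the labels exchanged (1.81 ± 1.31, adjusted p = 0.411). S100a10, an annexin partner, differed by 1.42 ± 0.29 and Atp2b1, a plasma membrane calcium pump, by 0.97 ± 0.27. Ncald, the calcium sensor neurocalcin delta, had 1260.4, 702.6 and 835.2 in CA1, against 4684.0 and 4635.6 in CA3 (-2.42 ± 0.27, adjusted p = 0.000705). Ryr2, a calcium release channel, differed by -1.25 ± 0.25 and Gap43, a growth cone protein that binds calmodulin as Pcp4 does, by -1.19 ± 0.22.

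Of these, the calls of Pcp4 and Ncald held in every leave-out. That of Calb1 ended without any single CA1 array and without CA3 replicate 2, that of Atp2b1 ended in all 8 leave-outs, and that of S100a10 ended without CA1 replicate 1 and without CA3 replicate 1. Ryr2 lost its call without CA1 replicate 2 and without CA3 replicate 1 or 2.

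Calcium and lipid dependent kinases gave 2 higher and 0 lower of 20 tested of 25 listed (median -0.10, but 0.19 as labelled with 0 called). For this list and the next, the shares over all probe sets were 5.0% higher and 4.71% lower. Itpka, which phosphorylates inositol trisphosphate in dendritic spines, had 5751.6, 5337.6 and 5563.2 in CA1, against 1329.1 and 1014.0 in CA3 (2.23 ± 0.47, limma adjusted p = 0.015). Prkcb, a protein kinase C, had 10654.1, 10454.1 and 10898.2 in CA1, against 5174.6 and 5162.8 in CA3 (0.99 ± 0.23, adjusted p = 0.0241). The arrays of each field agreed closely for both genes, yet both calls ended without any single CA1 array and without CA3 replicate 2, and that of Prkcb also without CA3 replicate 1. In the MAPK list 2 of 14 tested of 26 listed were higher, the feedback inhibitors Dusp1 (1.63 ± 0.27) and Spry2 (1.15 ± 0.25), and 1 was lower, the phosphatase gene Dusp3 (-0.91 ± 0.21), for which a second probe set gave -0.40.

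The immediate early gene Dusp1 had 1856.0, 1437.2 and 692.2 in CA1, against 637.3 and 351.5 in CA3 (limma adjusted p = 0.00465), with CA1 replicate 3 lowest of the CA1 arrays as for Egr2 and Fos. Its call ended without CA3 replicate 2, that of Spry2 without CA1 replicate 1 or 2 and without CA3 replicate 1 or 2, and that of Dusp3 in 7 of the 8 leave-outs.

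Among ion channels, A-type potassium channel genes differed in opposite directions. Kcnd2, which encodes the dendritic channel Kv4.2, had 5593.5, 4863.8 and 5065.1 in CA1, against 2109.0 and 2368.2 in CA3 (1.18 ± 0.27, limma adjusted p = 0.0202), and a further probe set gave 1.40. Kcnd3, which encodes Kv4.3, had 46.3, 70.8 and 68.5 in CA1, against 520.1 and 399.9 in CA3 (-3.03 ± 0.36, adjusted p = 0.000962), and it was also lower as labelled (-3.19, adjusted p = 0.0124). Kcna1, the axonal channel Kv1.1, differed by -2.06 ± 0.36 and Kcnh1, an ether-a-go-go channel, by -0.96 ± 0.23. In all, 1 of 16 tested of 34 listed was higher and 3 were lower (median -0.24, but 0.43 as labelled with 1 called lower). The shares over all probe sets without the doubtful arrays were 5.0% and 4.71%.

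Of 14 sodium, calcium and HCN channel genes tested of 26 listed, 0 were higher and 2 lower in CA1 (median -0.01, but 0.29 as labelled with 0 called). Among all probe sets 5.0% were called higher and 4.71% lower without the doubtful arrays. Cacna2d3, an auxiliary calcium channel subunit, had 2817.7, 2064.1 and 2840.0 in CA1, against 6338.8 and 8359.1 in CA3 (-1.55 ± 0.29, limma adjusted p = 0.00854). Cacna1c, the L-type channel Cav1.2, differed by -1.29 ± 0.29. The call of Kcnd3 held in every leave-out, and those of Kcna1, Kcnd2, Kcnh1, Cacna2d3 and Cacna1c all ended without CA3 replicate 2. Kcnd2 lost its call in 7 of the 8 leave-outs.

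Of the glutamate receptor genes, Grik4 and Cacng3 passed. Of 10 ionotropic receptor genes tested of 22 listed, 1 was called higher and 1 lower in CA1 (median 0.16). The shares over all probe sets were 5.0% and 4.71%. The higher one was Cacng3, an AMPA receptor auxiliary subunit, with 235.7, 217.9 and 172.2 in CA1, against 87.0 and 65.0 in CA3 (1.53 ± 0.36, limma adjusted p = 0.0241). Its signals outside CA1, with 8.8 and 14.3 in the doubtful arrays, were all below the array median. Cacng3 thus passed the filter on low signals only through CA1. The AMPA receptor subunit gene Gria1 had 2293.2, 1790.8 and 2364.0 in CA1, against 1406.4 and 1330.9 in CA3 and did not pass (0.67 ± 0.31, adjusted p = 0.212). At an unadjusted p under 0.05 in limma 3 ionotropic receptor genes were higher and 2 lower. With the labels exchanged 2 were called higher and 1 lower. Of 2 metabotropic receptor genes tested of 10 listed, 0 were called (median 0.36).

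For GABA receptors, 1 of 7 tested of 16 listed was higher and 1 lower (median 0.08), against 5.0% and 4.71% of all probe sets. Gabrb2, a GABA-A subunit, had 5109.4, 5513.1 and 5263.6 in CA1, against 2319.5 and 2874.2 in CA3 (1.01 ± 0.22, limma adjusted p = 0.017). Gabbr2, a GABA-B subunit, had 2716.1, 2962.8 and 4105.7 in CA1, against 5415.4 and 8016.4 in CA3 (-1.18 ± 0.26, adjusted p = 0.0198). The ionotropic and the metabotropic receptor subunit thus differed in opposite directions, and both calls, like that of Cacng3, ended without CA3 replicate 1 and without CA3 replicate 2.

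Antioxidant genes bear on the question of the study. Of 26 tested of 35 listed, 0 were higher and 3 lower in CA1 (median -0.33, with 20 of 26 below 0). Over all probe sets 9.71% were called and 52.8% were below 0. Gsta4, a glutathione transferase that clears lipid aldehydes, had 366.6, 351.9 and 345.0 in CA1, against 1319.8 and 1051.9 in CA3 (-1.79 ± 0.26, limma adjusted p = 0.00241). Gstm5, another transferase, had 374.4, 257.7 and 455.7 in CA1, against 779.9 and 529.1 in CA3 (-1.06 ± 0.21, adjusted p = 0.0124), and Prdx6, a peroxiredoxin, had 141.3, 149.3 and 160.5 in CA1, against 301.0 and 267.0 in CA3 (-1.05 ± 0.23, adjusted p = 0.0196). All 3 were lower in each CA1 array than in both CA3 arrays.

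The superoxide dismutases and the main peroxide-removing enzymes did not pass. Sod1 had 4578.0, 3807.2 and 3892.4 in CA1, against 4961.0 and 4830.4 in CA3 (-0.26 ± 0.23, limma adjusted p = 0.528), Sod2 differed by -0.35 ± 0.31, Gpx1 by -0.48 ± 0.26 and Cat, catalase, by -0.80 ± 0.28. As labelled the median of the list was -0.05 with 0 called, so that its shift rests on the arrangement of the doubtful arrays. With the labels exchanged 1 was higher and 5 lower (median -0.25). The call of Gsta4 held in every leave-out, and those of Gstm5 and Prdx6 ended in 6 of the 8, among them those without CA3 replicate 1 and without CA3 replicate 2.

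Few genes of energy metabolism passed, and those that did were lower in CA1. In glycolysis 0 of 14 genes tested of 16 listed were called higher and 2 lower (median -0.48), with 14 of 14 below 0, against 52.8% of all probe sets and 4.71% called lower. Pfkp, the platelet-type phosphofructokinase, had 1474.3, 1578.2 and 2103.0 in CA1, against 4388.4 and 3734.9 in CA3 (-1.36 ± 0.25, limma adjusted p = 0.0082), and it was also called as labelled (-1.31, adjusted p = 0.0364). Eno1, enolase 1, had 2835.8, 3094.2 and 2792.2 in CA1, against 6295.4 and 6356.7 in CA3 (-1.13 ± 0.21, adjusted p = 0.00843). The lactate dehydrogenase gene Ldha had 4180.9, 3721.0 and 4671.8 in CA1, against 7316.3 and 8527.3 in CA3 and did not pass (-0.97).

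In the citrate cycle and malate enzyme list, 0 of 22 tested of 24 listed were higher and 2 lower (median -0.42). Among all probe sets 5.0% were called higher and 4.71% lower. Me1, the cytosolic malic enzyme that forms NADPH, had 470.9, 557.4 and 595.8 in CA1, against 1637.9 and 1779.5 in CA3 (-1.71 ± 0.23, limma adjusted p = 0.00176), and its second probe set gave -0.83 without passing. Suclg2, a succinyl-CoA ligase subunit, differed by -1.0 ± 0.24 and was not called with the labels exchanged (-0.65). Of 29 respiratory chain and ATP synthase genes tested of 35 listed, 0 were called in limma (0 higher and 1 lower at an unadjusted p under 0.05) and 28 were below 0 (median -0.26). No single respiratory gene thus passed, and the medians of the 3 lists as labelled were -0.30, -0.17 and -0.17.

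The call of Me1 held in every leave-out, while those of Pfkp and Eno1 ended in 4 of the 8 and that of Suclg2 in 6, each without CA3 replicate 2 and without CA1 replicate 1 among them. Pfkp, Eno1, Ldha and Me1 are on lists the study chose on these samples, and their direction is not independent evidence.

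Adhesion and cytoskeletal genes held some of the larger differences. Of 22 adhesion and guidance genes tested of 49 listed, 3 were higher and 1 lower in CA1 (median -0.20). Over all probe sets 5.0% were called higher and 4.71% lower. As labelled the median had the other sign, at 0.49 with 17 of 22 above 0, and 0 were called. Beside Adgrl2 the higher ones were Flrt2, a ligand of latrophilins, with 1077.7, 964.3 and 871.9 in CA1, against 422.5 and 502.0 in CA3 (1.1 ± 0.22, limma adjusted p = 0.0122), and Pcdh17, a protocadherin (0.95 ± 0.25). The receptor gene Adgrl2 and the ligand gene Flrt2 were thus both higher in CA1. Edil3, an integrin-binding matrix protein, had 235.0, 203.9 and 152.9 in CA1, against 1406.5 and 2006.1 in CA3 (-3.05 ± 0.24, adjusted p = 0.000133).

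Of 27 cytoskeletal genes tested of 32 listed, 3 were higher and 5 lower in CA1 (median -0.33, but 0.02 as labelled with 1 called lower). The shares over all probe sets without the doubtful arrays were 5.0% higher and 4.71% lower. The neurofilament genes Nefm, with 1531.6, 1714.5 and 1628.2 in CA1, against 4605.0 and 6046.0 in CA3 (-1.64 ± 0.31, limma adjusted p = 0.00865), and Nefl (-1.25) were lower, as were Tubb2b, a tubulin (-1.43), and the proteoglycan gene Spock1 (-2.67). Tropomyosins differed in opposite directions. Tpm4 had 106.3, 57.8 and 50.4 in CA1, against 390.6 and 384.2 in CA3 (-2.56 ± 0.37, adjusted p = 0.00238), while Tpm1 had 2320.4, 2128.9 and 2459.8 in CA1, against 1018.4 and 726.4 in CA3 (1.40 ± 0.26, adjusted p = 0.00884), although its other probe sets gave 0.17 to 0.93. Dclk1, a microtubule-binding kinase (1.45 ± 0.31, with 1.43 and -0.17 in further probe sets), and Map4, a microtubule-associated protein (1.04 ± 0.25), were the other higher members.

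The calls of Edil3 and Tpm4 held in every leave-out. Those of Flrt2, Pcdh17, Nefm, Tpm1, Dclk1 and Spock1 ended without CA3 replicate 1 and without CA3 replicate 2, and that of Map4 ended in all 8.

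Lists of genome and protein upkeep stand beside the 5.0% called higher and 4.71% called lower over all probe sets. A single call in lists of 18 or 23 genes is near that share. Of 18 DNA repair genes tested of 36 listed, 1 was higher and 0 lower (median 0.19), namely Parp2, a strand break sensor, with 393.4, 376.5 and 403.4 in CA1, against 221.2 and 207.0 in CA3 (0.78 ± 0.21, limma adjusted p = 0.043), whose call ended in all 8 leave-outs. At an unadjusted p under 0.05 in limma 5 were higher and 1 lower, and with the labels exchanged 3 were called higher and 0 lower. Of 23 ubiquitin genes tested of 31 listed, 1 was higher, Usp1, a deubiquitinase (1.41 ± 0.33, adjusted p = 0.0245, with the call ending in 4 leave-outs), and 0 were lower (median -0.19). Of 24 heat shock and chaperone genes tested of 32 listed, 0 were called in limma over 10 arrays (1 higher and 2 lower at an unadjusted p under 0.05, median -0.15), and 1 was higher and 2 were lower with the labels exchanged.

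**Figure D5:**
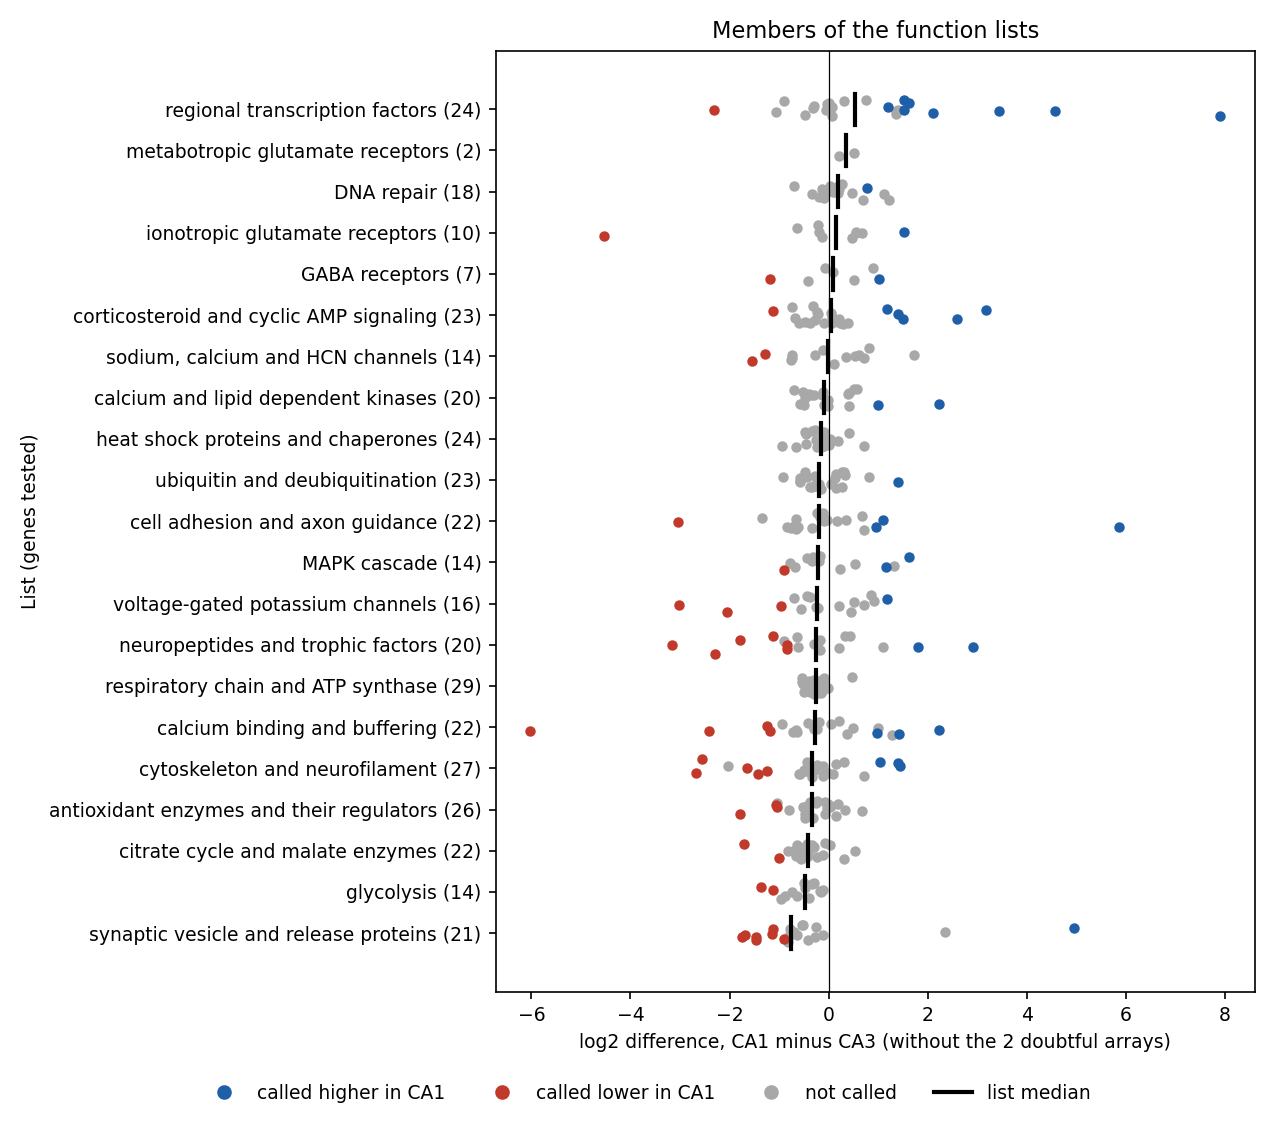
The log2 difference (CA1 minus CA3, without the doubtful arrays) of each tested gene of 21 function lists, with genes called higher in CA1 in blue, lower in red and not called in grey, and the median of each list as a bar. The list medians run from -0.75 for synaptic vesicle and release proteins to 0.53 for transcription factors.

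Beside the 2 hippocampal fields, the cortical arrays did not side with either. Of the 415 probe sets higher in CA1, the CTX mean was nearer to CA1 for 186 (44.8%) and the mean of CbG replicates 1 and 2 for 178 (42.9%). Of the 391 lower in CA1, the CTX mean was nearer to CA3 for 154 (39.4%) and the CbG mean for 161 (41.2%). Of the 4 markers, Pcp4 averaged 10279.9 in CTX and Mpped1 4327.6, while Wfs1 (758.8) and Grik4 (199.2) were low there, so that neither set of hippocampal markers was shared as a whole with the cortex.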

How the data were processed

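The deposited values are intensities, given by the authors as signals of the MAS5 algorithm (named in the submitters' processing notes, version not stated) on a linear scale, each array being scaled to a trimmed mean near 500 (499.9 to 500.3). Of 15923 probe sets, 57 controls were left out, and 12783 of the rest carry a single gene symbol in the platform annotation. Signals were put on the log2 scale and centred on the median of each array. Probe sets above the 50th percentile of the array in at least 3 of the 7 arrays, the doubtful ones included, were kept (8302, or 52.3%). The number of arrays limits the precision.

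Region means were fitted with limma 3.58.1 in R 4.3.3, with the rat as a block, a spread shared by the 4 regions, and Benjamini-Hochberg adjustment over all 8302 probe sets. Tables and figures were made with Python 3.11.15 and matplotlib 3.10.9. The block follows the paired tests of the methods. The deviations of CA1 and CA3 arrays with the same number correlated at 0.162 and 0.184 without the doubtful arrays and at -0.077 to 0.069 as labelled, over probe sets.

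The members, lists and tests were chosen with earlier results of these data known. Genes named are the 14 largest differences in each direction that passed both without the doubtful arrays and with the labels exchanged and did not overlap, the 4 largest in each direction as labelled, the 4 markers, and up to 3 called members of each list in each direction. Other list members, among them Fos, Junb, Nr4a1, Egr1, Gad1, Sod1, Ldha, Gria1, Nr3c1, Mog, Prox1 and Rgs14, were named after their values were seen. A gene with several probe sets is given by the larger difference among the leading genes and by the brightest probe set in the lists. Gene names follow the annotation, and some listed genes were not analysed here. In values simulated on the log2 scale for the comparison without the doubtful arrays, over 8302 probe sets, 0 of 83 changes of 1.5-fold, 3 of 55 of 2-fold and 34 of 62 of 3-fold were found. Alternatives covered normalization, low signals, the filter, the block, the arrays in the fit, the prior, the fold and each array and rat.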

Additional observations from a re-analysis of the deposited data

How the results depend on the processing

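No count or named call reversed its direction under any alternative tried, while the median of the astrocyte list, which held no call, was 0.18 with all probe sets of each gene, against -0.04 with the brightest. Counts are given as higher and lower in CA1. Without a filter on low signals they were 2 and 2 as labelled, 23 and 20 without the doubtful arrays and 234 and 230 with the labels exchanged. With only CA1 and CA3 arrays in the fit they were 0 and 1 as labelled (468 and 440 at an unadjusted p under 0.05), and 591 lower without the doubtful arrays, where the higher count stayed within 1.5 times. The methods' paired test at its unadjusted threshold and 1.5-fold gave 210 and 224 as labelled and 205 and 206 without the doubtful arrays, and 0 and 0 after Benjamini-Hochberg adjustment in all 3 arrangements. At 2-fold the exchanged labels gave 350 and 285. Leaving out 1 array or 1 rat gave 0 to 301 and 0 to 310 as labelled, 115 to 394 and 113 to 376 without the doubtful arrays, and 208 to 453 and 192 to 447 with the labels exchanged. Leaving out only the array labelled CbG replicate 3, chosen after seeing the data, gave 141 and 134 as labelled.

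Without the replicate block the counts were 102 and 110 as labelled, 502 and 470 without the doubtful arrays and 589 and 509 with the labels exchanged. The block changed 3 of the 87 named calls without the doubtful arrays. Quantile normalization, no centring, 50 added to each signal, a floor of 50, the other 2 filters and a trend in the prior left every count of the fit without the doubtful arrays within 1.5 times. MAS5 signals near the bottom of the range carry little information on size, so that differences of genes near 0 in a field depend on the floor, and the 3-fold changes found in simulated data were 54.8%.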
